A study of Mus musculus with 40 samples.

Results

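The question was whether retinoic acid (RA) changed each gene's RNA level by the same amount in wild-type mouse embryonic stem cells (ESCs) and in ESCs homozygous for GLP 3A, a mutant form of the histone methyltransferase GLP. For each gene the change with RA in wild type was subtracted from the change with RA in GLP 3A, and this value is called the difference of responses. It was computed on log2(RPKM + 1), where RPKM is the number of reads divided by the length of the gene and the size of the library, and a positive value means that RA left the gene higher in GLP 3A, relative to its own untreated level, than in wild type. All 8 RNA libraries among the 40 samples of the series were used, and the other 32 samples were not analysed here. Of 23228 genes listed in all 8 files, 13198 had at least 1 RPKM in at least 2 libraries and were tested.

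The 4 groups held 2 libraries each, namely untreated wild type, wild type with 1 uM all-trans RA, untreated GLP 3A and GLP 3A with 1 uM all-trans RA. Cells of every group had a C57BL/6 (mixed) background and had been grown on feeder cells in serum with LIF and then passaged without feeders in 2i medium, per the labels' protocols. LIF, the cytokine that maintains mouse ESCs, was removed as RA was added, so the effects of the 2 steps cannot be told apart, and "with RA" below stands for both. The sources used here do not give how long RA was present, how many clones stand for each genotype or whether the replicates were separate cultures. The p-values therefore reflect only how far these libraries spread, which may be technical, and genotype cannot be told apart from clone.

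GLP, the product of Ehmt1, works with its partner G9a, the product of Ehmt2, to place mono- and dimethylation on lysine 9 of histone H3, a mark of silent chromatin. GLP also carries ankyrin repeats that bind this mark, and the 3A mutant alters that reading domain. RA enters the nucleus and binds RAR and RXR receptors, which sit on DNA and switch from repressing to activating their targets. In ESCs this closes down the pluripotency network and opens Hox genes and genes of neural, mesodermal and extraembryonic endoderm cells. A difference of responses can therefore arise in several ways, since a gene can start from the same level and end apart, start apart and end at the same level, or cross over.

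RPKM values summed to between 509341 and 822877 per library, and 11344 to 12369 genes stood at 1 RPKM or more. The files give no read counts, so depth is unknown. The 1st percentile of the non-zero values was 0.0082 to 0.0090 RPKM in replicate 1 libraries and 0.0145 to 0.0174 in replicate 2 libraries, so the lowest values are coarser in replicate 2. The standard deviation over genes of the difference between the 2 replicates was 0.47 in untreated wild type, 0.52 in wild type with RA, 0.56 in untreated GLP 3A and 0.70 in GLP 3A with RA, so the RA-treated mutant was the noisiest group. The median absolute difference was 0.082, 0.145, 0.077 and 0.181 in the same order, larger with RA in both genotypes. The fit takes 1 spread per gene for all 4 groups, so its errors may be too small with RA and too large untreated. Untreated cells of both genotypes carried the pluripotency markers Pou5f1 and Nanog, and fibroblast and feeder markers summed to at most 5.91 RPKM in them, with Postn and Lum below 1 RPKM in every library. Ehmt1 itself stood at 18.4 and 17.6 RPKM in wild type before RA and at 24.4 and 23.5 after it. In GLP 3A it stood at 14.1 and 14.3 before and 12.96 and 13.9 after. Its difference of responses was -0.47 ± 0.095, adjusted p = 0.0698, which did not pass the threshold.

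For most genes no difference between the RA responses of the genotypes was called. RA changed 9041 genes in wild type (68.5% of genes tested) and 9289 in GLP 3A (70.4%), while the difference of responses was called for 238 genes (1.8%) at an adjusted p under 0.05 in limma with Benjamini-Hochberg adjustment over all genes tested. It was above 0 in 74 of them (0.561% of genes tested) and below 0 in 164 (1.24%). The median over all genes tested was -0.06 with a median standard error of 0.16, and the smallest difference called was 0.52 in size. Of the 238 genes, 149 differed at least 2-fold, 50 higher and 99 lower. In all 238 the sign was the same in each of the 16 ways to take 1 library per group. The calls rest on the same libraries, so this agreement is no separate support for them. An unadjusted p under 0.05 was reached by 2764 genes. At the threshold, Epb4.1l4b (-0.71, adjusted p = 0.04997) fell just inside and Klf10 (0.62, adjusted p = 0.0502) just outside.

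These counts rest on few libraries. Without untreated wild-type replicate 1 or 2, 11 or 10 genes were called, and without untreated GLP 3A replicate 1 or 2, 12 or 15. Without RA-treated wild-type replicate 1 or 2 the count was 45 or 64. It was 325 without RA-treated GLP 3A replicate 1 and 1129 without replicate 2. Among the 66 called genes reported below, Hand2, Ubd and Atp6v0c-ps2 kept their calls whichever library was left out, and all 66 kept them without RA-treated GLP 3A replicate 2. In every leave-out fit in which a reported called gene was tested, its direction was the same. Each such fit has a group of 1 library, which is assumed to vary like the libraries of the other groups, so kept and lost calls describe these fits only. Of the 238 genes, 28 reached 1 RPKM in both libraries of 1 group and in no other library. They were tested only because they were high there, and among the reported ones these are Col14a1, Pax3, Hoxa9 and Hoxa10 through wild type with RA and Osm, Smtnl1 and Hesx1 through untreated GLP 3A.

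The 238 genes were split by the comparison of the genotypes before and after RA. GLP 3A against wild type was called for 1541 genes untreated (11.7% of genes tested) and for 1401 genes with RA (10.6%). Of the 238 genes, 72 had a genotype difference called with RA and not untreated, 116 had one called untreated and not with RA, 34 had differences of opposite sign called in both states and 16 had differences of the same sign called in both. For 68 of the 72, the moderated 95% interval of the untreated difference lay within 1 log2 unit of 0, and for 111 of the 116 that of the difference with RA did. These counts are partly set by the class rule, which asks for no call in that state. The split and its intervals also rest on 1 spread per gene for all groups, although replicates differed more with RA. Moreover, 29 of the 72 were below 1 RPKM in every untreated library, and 27 of the 116 in every library with RA. Below 1 RPKM, values of log2(RPKM + 1) differ by less than 1 whatever the fold change. The difference of responses was called for 72 of the 932 genes called with RA and not untreated (7.73%) and for 116 of the 1072 genes called untreated and not with RA (10.8%).

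**Figure D1:**
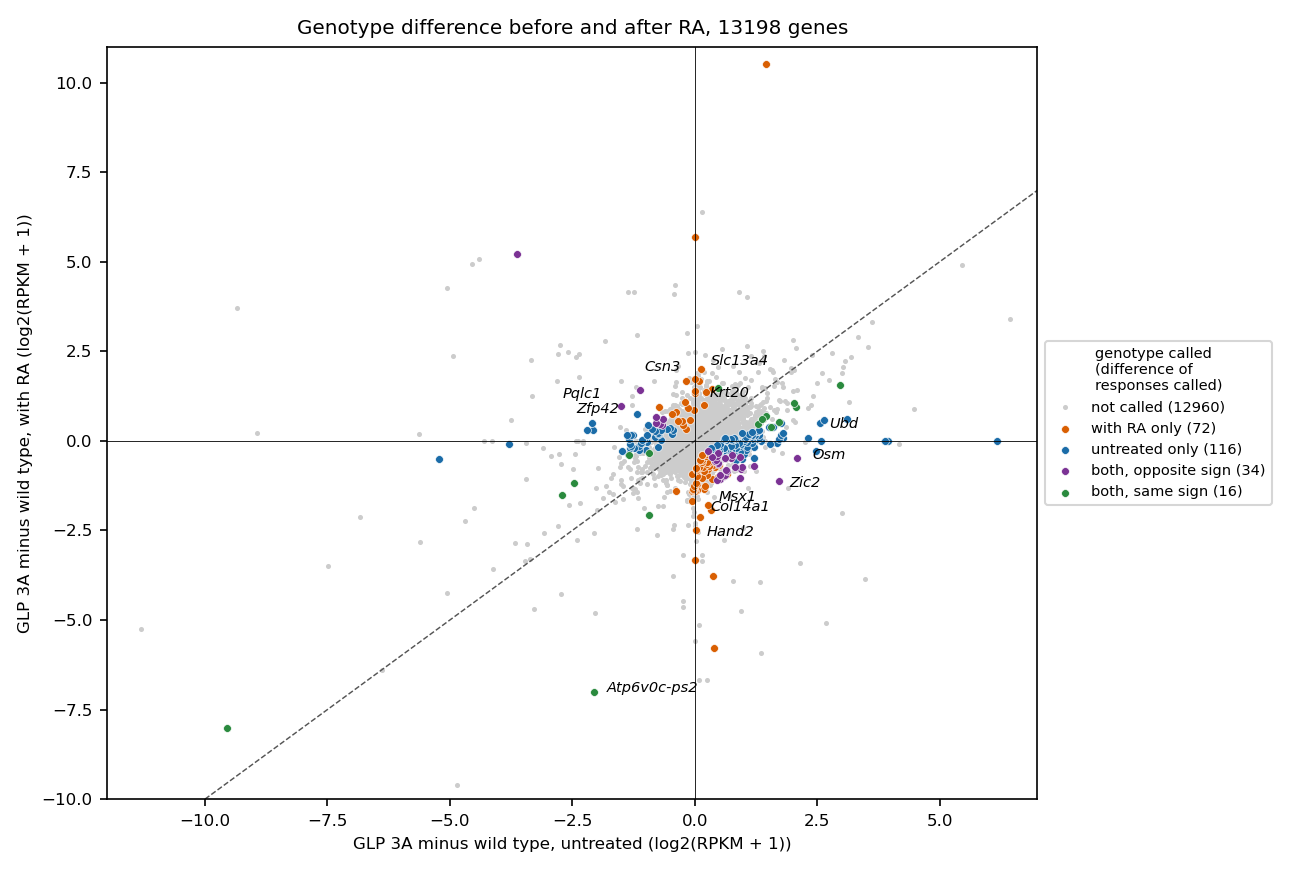
Each point is 1 of 13198 genes, with GLP 3A minus wild type untreated on the horizontal axis and with RA on the vertical axis, both in log2(RPKM + 1); colours mark the 238 genes called for the difference of responses by the state in which the genotypes differed. Genes on the dashed line have equal genotype differences in both states. The 72 genes called with RA and not untreated lie near the vertical line at 0. The 116 called untreated and not with RA lie near the horizontal line.

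In the direction of response, the 164 genes with lower values were most often genes that RA raised in both genotypes, but less far in GLP 3A, with 55 such genes. Another 39 fell in both genotypes, 28 fell in GLP 3A with no called change in wild type, 24 rose in wild type and fell in GLP 3A, and 18 rose in wild type with no called change in GLP 3A. The 74 genes with higher values fell in both genotypes in 24 cases, rose in both in 18, fell in wild type with no called change in GLP 3A in 14, rose in GLP 3A with no called change in wild type in 12, and fell in wild type and rose in GLP 3A in 6. Calls in the 2 genotypes share no libraries, but each shares libraries with the difference of responses, so these counts describe the same values a second way.

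Among the 72 genes whose genotypes differed with RA and not untreated, 50 had lower and 22 had higher values. Of the 50, 22 rose with RA in both genotypes and 9 rose in wild type with no called change in GLP 3A, while 21 were below 1 RPKM in all 4 untreated libraries. These 21 were thus low before RA in both genotypes but not all near silence, as Aff3 ranged from 0.596 to 0.855 RPKM there. The clearest was Hand2, a transcription factor of heart, limb and neural crest development (mm9 chromosome 8, 59799779 to 59803314). Hand2 stood at 0.00894 and 0 RPKM without RA and at 13.1 and 12.9 with RA in wild type. The GLP 3A libraries had 0.0195 and 0.0383 without and 1.33 and 1.71 with RA. RA raised it in both genotypes, and no GLP 3A library with RA came near a wild-type one. The difference of responses was -2.52 ± 0.15, adjusted p = 0.00307 (SE, n = 2 per group, limma), and the untreated genotype difference was 0.035 with an interval of -0.22 to 0.29. Its adjusted p was at most 0.0427 with any 1 library left out.

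Msx1, a homeobox gene of craniofacial and neural crest development (mm9 chromosome 5, 38211729 to 38215824), showed the same form. It stood at 0.0972 and 0.135 RPKM in wild type untreated and at 45.5 and 46.6 with RA. GLP 3A gave 0.397 and 0.307 untreated and 10.6 and 14.8 with RA. The wild-type and GLP 3A libraries with RA did not overlap, and the difference of responses was -2.07 ± 0.21, adjusted p = 0.0192. Hand2 and Msx1 were picked by calls on these same libraries, so the gaps between their libraries with RA are no separate support. Msx1 shares its locus with the antisense gene Msx1as, and reads of both could not be separated here. Col14a1, which encodes collagen XIV, reached 5.403 and 6.05 RPKM with RA in wild type and 0.272 and 0.848 in GLP 3A, from 0.0166 and 0.0128 and 0.0763 and 0.118 untreated (-2.24 ± 0.26, adjusted p = 0.0217). RA raised it in wild type, and its change in GLP 3A did not pass the test (0.48, adjusted p = 0.0514).

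To show the starting sequence of genes with opposite behaviour, the promoters of 4 genes are given from 250 bases before to 50 bases after the annotated start, from RefSeq on GRCm38.p6, with CpG dinucleotides in capitals. Hand2 and Msx1 ended lower in GLP 3A with RA, Krt20 ended higher, and Ubd differed before RA.
Hand2, chr8:57320733-57321032, plus strand: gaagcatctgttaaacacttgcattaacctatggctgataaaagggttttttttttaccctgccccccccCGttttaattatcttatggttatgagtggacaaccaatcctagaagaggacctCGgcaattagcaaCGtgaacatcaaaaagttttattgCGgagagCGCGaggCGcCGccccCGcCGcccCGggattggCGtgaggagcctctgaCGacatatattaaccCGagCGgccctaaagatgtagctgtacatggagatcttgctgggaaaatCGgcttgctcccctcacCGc
Msx1, chr5:37824536-37824835, minus strand: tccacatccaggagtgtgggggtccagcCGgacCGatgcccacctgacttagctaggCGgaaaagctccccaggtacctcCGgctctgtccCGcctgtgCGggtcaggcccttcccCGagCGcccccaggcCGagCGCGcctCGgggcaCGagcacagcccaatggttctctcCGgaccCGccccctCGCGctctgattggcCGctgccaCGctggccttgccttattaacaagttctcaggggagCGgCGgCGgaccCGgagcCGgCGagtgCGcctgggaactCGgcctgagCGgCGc
Krt20, chr11:99438104-99438403, minus strand: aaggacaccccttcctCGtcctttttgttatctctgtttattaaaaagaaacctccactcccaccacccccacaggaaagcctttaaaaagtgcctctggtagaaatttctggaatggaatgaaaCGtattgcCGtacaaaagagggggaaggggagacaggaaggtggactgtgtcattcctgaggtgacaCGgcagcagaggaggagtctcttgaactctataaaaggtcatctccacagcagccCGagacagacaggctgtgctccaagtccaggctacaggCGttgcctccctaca
Ubd, chr17:37193642-37193941, plus strand: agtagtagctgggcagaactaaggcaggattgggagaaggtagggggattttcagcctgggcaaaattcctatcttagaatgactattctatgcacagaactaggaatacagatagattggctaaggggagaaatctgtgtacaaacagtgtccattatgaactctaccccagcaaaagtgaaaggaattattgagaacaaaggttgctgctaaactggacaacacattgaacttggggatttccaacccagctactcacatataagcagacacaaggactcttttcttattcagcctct
Hand2 held 17 CpGs and Msx1 29, against a median of 7 and quartiles of 3 and 20 over the 32851 promoters of the same length in the table. Krt20 held 6 and Ubd none, as did 5.43% of promoters. The RA receptor half-site AGGTCA, searched on both strands, occurred once in the Krt20 window and in none of the other windows, and 16.3% of all promoters held it. These are descriptions of the letters in these windows and say nothing about binding.

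Other genes of this group that ended lower in GLP 3A included surface receptors and signalling genes. Nrp2, a co-receptor of semaphorins and VEGF, rose in wild type and fell in GLP 3A. It stood at 11.3 and 10.7 RPKM before and 18.2 and 18.6 after RA in wild type. Levels in GLP 3A were 14.4 and 13.8 before and 2.96 and 5.602 after. The difference of responses was -2.26 ± 0.31, adjusted p = 0.0321. It shares its locus with 4930487H11Rik. Gfra3, a receptor of the GDNF family, reached 0.813 and 1.05 RPKM with RA in GLP 3A against 5.59 and 4.74 in wild type (-1.63 ± 0.17, adjusted p = 0.0196). Pdgfra, the PDGF receptor that marks primitive endoderm and mesenchyme, reached 2.71 and 3.41 RPKM with RA in GLP 3A against 10.9 and 8.65 in wild type from 0.0779 and 0.162 and 0.156 and 0.155 untreated (-1.36 ± 0.199, adjusted p = 0.03800). In each of these 3 genes the lower wild-type library with RA was above the higher GLP 3A one. They were picked by calls on these same libraries, which makes such an order likely, so it is no separate support.

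Hhip, which binds and restrains Hedgehog ligands, gave 1.78 and 1.65 RPKM with RA in GLP 3A against 4.58 and 4.17 in wild type (-1.03 ± 0.14, adjusted p = 0.0306). Lifr, a subunit of the LIF receptor, fell in GLP 3A (log2 change -1.06, adjusted p = 0.000476) and was not called in wild type (0.11, adjusted p = 0.476), with a difference of -1.17 ± 0.18, adjusted p = 0.0401. Sp5, a transcription factor induced by Wnt signalling, rose in wild type to 18.1 and 26.7 RPKM from 6.64 and 6.87 and stood at 9.67 and 11.3 in GLP 3A against 10.1 and 9.53 untreated (-1.49 ± 0.25, adjusted p = 0.0463).

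Nuclear factors in the same group were Pax3 (0.427 and 0.856 RPKM with RA in GLP 3A against 2.996 and 3.48 in wild type, difference -1.42 ± 0.21, adjusted p = 0.0383), a neural crest and muscle regulator, Gata3 (7.92 and 9.22 RPKM with RA in GLP 3A against 13.4 and 15.1 in wild type, difference -1.16 ± 0.17, adjusted p = 0.0381), a zinc-finger factor, and Aff3 (2.34 and 2.51 RPKM with RA in GLP 3A against 6.903 and 7.55 in wild type, difference -1.47 ± 0.13, adjusted p = 0.0168). The imprinted zinc-finger gene Zim1 (-1.35), Fam181b (-1.54) and Idi1 (-0.74), an enzyme of isoprenoid synthesis, were also called lower. Apart from Hand2, the named genes of this group lost their calls in several leave-out fits, including every one of an untreated library in which they were tested, with adjusted p up to 0.223 (Idi1).

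The 22 genes of this group with higher values ended above wild type in GLP 3A, and 11 of them rose in both genotypes. Csn3, the gene of kappa casein (mm9 chromosome 5, 88337612 to 88408376), stood at 0.0251 and 0 RPKM in wild type without RA and at 6.81 and 8.61 with it. The GLP 3A values were 0.0251 and 0 and 28.3 and 26.9, in the same order. The difference of responses was 1.72 ± 0.16, adjusted p = 0.0181, and both GLP 3A libraries with RA were above both of wild type. That order is likely in any gene picked by a call with RA, so it is no separate support. Csn3 shares its locus with 1700066N21Rik. Krt20, a keratin of intestinal and urothelial epithelium, rose to 7.75 and 8.08 RPKM in wild type and 31.6 and 24.3 in GLP 3A from below 1 RPKM in all untreated libraries (1.598 ± 0.21, adjusted p = 0.0306). Krt20 was called under 9 of the 12 other settings that kept all libraries, with adjusted p in limma up to 0.326.

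Slc13a4, a sulphate transporter, reached 8.16 and 5.88 RPKM with RA in GLP 3A against 1.15 and 0.815 in wild type (1.89 ± 0.24, adjusted p = 0.0266), the largest increase of this group among genes the naming rule allows. Igtp, an interferon-induced GTPase, gave 5.96 and 6.25 RPKM with RA in GLP 3A against 1.74 and 1.77 in wild type (1.13 ± 0.15, adjusted p = 0.0306), and the replication-dependent histone gene Hist1h2bc, which has near-identical copies and is uncertain for that reason, gave 16.8 and 19.3 RPKM with RA in GLP 3A against 7.36 and 8.75 in wild type (1.27 ± 0.21, adjusted p = 0.0471). Hoxb1, a direct RA target of the hindbrain, rose to 36.7 and 37.6 RPKM in GLP 3A and 21.3 and 18.8 in wild type (0.87 ± 0.12, adjusted p = 0.0344). Rec8, a meiotic cohesin, rose to 71.9 and 74.2 and 48.8 and 48.97 RPKM (0.84 ± 0.12, adjusted p = 0.0363), and Cdkn1a, which encodes the cell-cycle inhibitor p21, to 147 and 155 and 107 and 113 (0.69 ± 0.093, adjusted p = 0.03100).

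In wild type, 3 further genes of this group fell with RA, and in GLP 3A they fell less or had no called change. Phlda2, an imprinted regulator of placental growth, fell in wild type from 87.99 and 99.7 to 32.9 and 26.4 RPKM and stood at 52.6 and 59.6 and then 67.95 and 49.2 in GLP 3A (1.68 ± 0.25, adjusted p = 0.0387); its untreated genotype difference of -0.73 was at the threshold (adjusted p = 0.05003). Chchd10, a mitochondrial protein gene, fell to 14.5 and 11.2 RPKM in wild type and 20.7 and 23.4 in GLP 3A (1.21 ± 0.18, adjusted p = 0.0387). Ass1, the argininosuccinate synthase gene, fell to 5.37 and 5.69 and 10.8 and 10.2 (1.21 ± 0.14, adjusted p = 0.0221). The calls of the 11 named genes with higher values ended when any 1 of the untreated libraries was left out, with adjusted p up to 0.217 (Hist1h2bc).

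**Figure D2:**
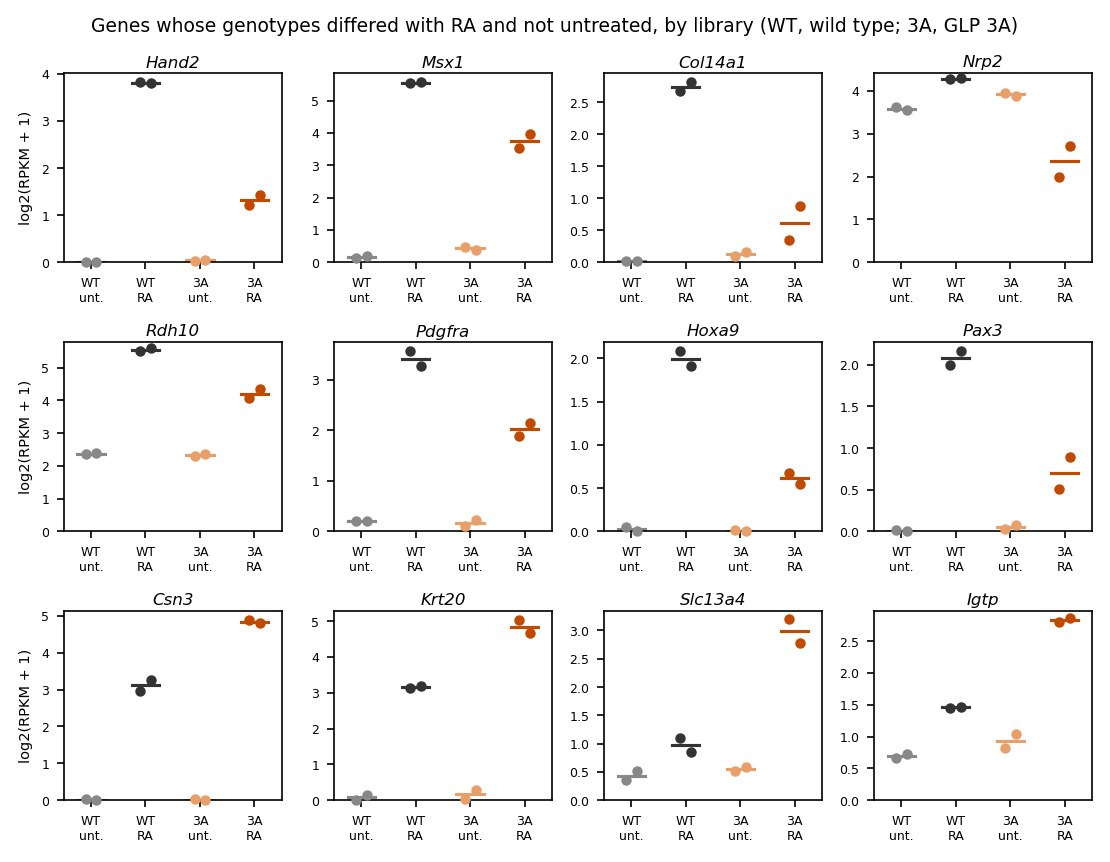
Each panel shows 1 gene and each point 1 library, as log2(RPKM + 1), with bars at the mean of the 2 libraries of a group. The genotypes start close together untreated on this scale, which compresses values below 1 RPKM. In the first 8 panels wild type with RA is above GLP 3A with RA, and in the last 4 it is below.

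The 116 genes whose genotypes differed untreated and not with RA formed the largest group, with 38 higher and 78 lower values. In these genes no genotype difference was called once RA was present, and 27 were below 1 RPKM in all 4 libraries with RA (16 lower, 11 higher). Zfp42, the ESC marker Rex1, stood at 314 and 290.1 RPKM in wild type untreated and 9.31 and 6.32 with RA. The mutant cells had 66.4 and 63.2 untreated and 13.5 and 6.89 with RA. It fell in both genotypes, to levels whose difference was not called (0.302, adjusted p = 0.536), from an untreated level that was lower in GLP 3A (-2.202, adjusted p = 0.00893), and the difference of responses was 2.504 ± 0.41, adjusted p = 0.0463. Ube2l6, the conjugating enzyme for the interferon-induced modifier ISG15, stood at 79.2 and 60.3 RPKM in wild type before RA and at 3.06 and 2.07 after it. In GLP 3A it stood at 16.5 and 14.5 before and 4.47 and 3.55 after (2.59 ± 0.27, adjusted p = 0.0193). The stathmin gene Stmn3 stood at 15.7 and 15.02 RPKM without RA and at 1.17 and 1.73 with RA in wild type. The GLP 3A libraries had 3.37 and 2.47 without and 2.09 and 1.895 with RA (2.37 ± 0.22, adjusted p = 0.0172). Its RA change was called in wild type and not in GLP 3A.

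Atp2a3, a calcium pump of the endoplasmic reticulum, fell in wild type and was not called in GLP 3A (1.92 ± 0.26, adjusted p = 0.0306), as was Osbpl10, of the oxysterol-binding family (1.39 ± 0.202, adjusted p = 0.0371). Arhgdib, a GTPase regulator gene, and Plekhb1 rose in GLP 3A from lower untreated levels, with differences of 1.47 and 1.55. Without RA, Arhgdib was at 5.28 and 5.67 RPKM in wild type and 1.81 and 1.48 in GLP 3A, then at 6.94 and 6.25 and 8.56 and 6.696 with RA. Spry4, a feedback inhibitor of FGF signalling (1.14 ± 0.17, adjusted p = 0.0376), and the bHLH factor Tcf15 (1.05 ± 0.17, adjusted p = 0.0449) fell in both genotypes from lower untreated levels in GLP 3A. Of the 12 other settings that kept all libraries, Spry4 was called under 9 (adjusted p in limma up to 0.247) and Tcf15 under 6. The named genes of this direction lost their calls without each untreated library, with adjusted p up to 0.209 (Tcf15).

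Lower values in this group mark genes that started higher in GLP 3A. Ubd, the ubiquitin-like protein FAT10 (mm9 chromosome 17, 37330836 to 37333046), stood at 3.88 and 4.27 RPKM in wild type untreated and at 0.0242 and 0.106 with RA. GLP 3A gave 29.9 and 28.4 untreated and 0.1403 and 0 with RA. It fell to near 0 in both genotypes, and its difference of responses of -2.57 ± 0.15, adjusted p = 0.00307 kept its call whichever library was left out (adjusted p at most 0.0401). Osm, oncostatin M, a cytokine of the LIF family, stood at 0.321 and 0.246 RPKM before and 0 and 0 after RA in wild type. Levels in GLP 3A were 5.52 and 5.27 before and 0.0842 and 0.0314 after (-2.24 ± 0.14, adjusted p = 0.00338). Smtnl1, a smoothelin-like gene, stood at 0.09096 and 0.0307 RPKM in wild type without RA and at 0.0752 and 0.0413 with it. The GLP 3A values were 5.45 and 5.09 and 0.815 and 0.239, in the same order (-2.06 ± 0.26, adjusted p = 0.0272).

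Egfl6, a secreted EGF-repeat protein gene, stood untreated at 9.84 and 8.496 RPKM in GLP 3A and 0.848 and 0.787 in wild type, then at 0.841 and 2.01 and 1.58 and 2.18 with RA (-2.77 ± 0.34, adjusted p = 0.0256). Hesx1, a homeobox gene of the forebrain and pituitary, fell in GLP 3A from 5.03 and 5.32 to 0.496 and 0.4299 RPKM (-1.67 ± 0.15, adjusted p = 0.0172). Prrc1 (-1.698 ± 0.16, adjusted p = 0.0181) and the adaptor gene Shf (-1.68 ± 0.17, adjusted p = 0.0193) rose in wild type and fell in GLP 3A. The de novo DNA methyltransferase gene Dnmt3b stood at 52.00 and 47.9 RPKM in wild type untreated and 20.2 and 14.5 with RA. The mutant cells had 120.4 and 112 untreated and 15.8 and 14.2 with RA (-1.38 ± 0.21, adjusted p = 0.0401).

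A pair of secretory genes in the group was high with RA in both genotypes. Sparc, a matrix protein abundant in parietal endoderm, stood at 91.6 and 79.6 RPKM in wild type before RA and at 612 and 485 after it. In GLP 3A it stood at 262 and 242 before and 485 and 538 after (-1.64 ± 0.19, adjusted p = 0.0221). Serpinh1, the collagen chaperone HSP47, stood at 20.7 and 20.6 RPKM without RA and at 415 and 349 with RA in wild type. The GLP 3A libraries had 48.4 and 47.2 without and 393 and 394 with RA (-1.12 ± 0.13, adjusted p = 0.0217). Both were higher in GLP 3A untreated, and with RA the genotype differences were -0.093 (adjusted p = 0.693) and 0.050 (adjusted p = 0.752). The imprinted gene Mest, which shares its locus with Copg2 and Mir335, had the same pattern (-1.25 ± 0.203, adjusted p = 0.0461). Zic5 (-1.46), the epithelial splicing factor Esrp1 (-0.98), the Wnt ligand gene Wnt5b (-0.81), which shares its locus with Fbxl14, and the mitotic kinase Aurkb (-0.52) were the other named members. Osm lost its call without untreated wild-type replicate 2 (adjusted p = 0.0603) and was not tested without either untreated GLP 3A library. The other named genes with lower values, Ubd aside, lost theirs without each untreated library in which they were tested, with adjusted p up to 0.228 (Aurkb).

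**Figure D3:**
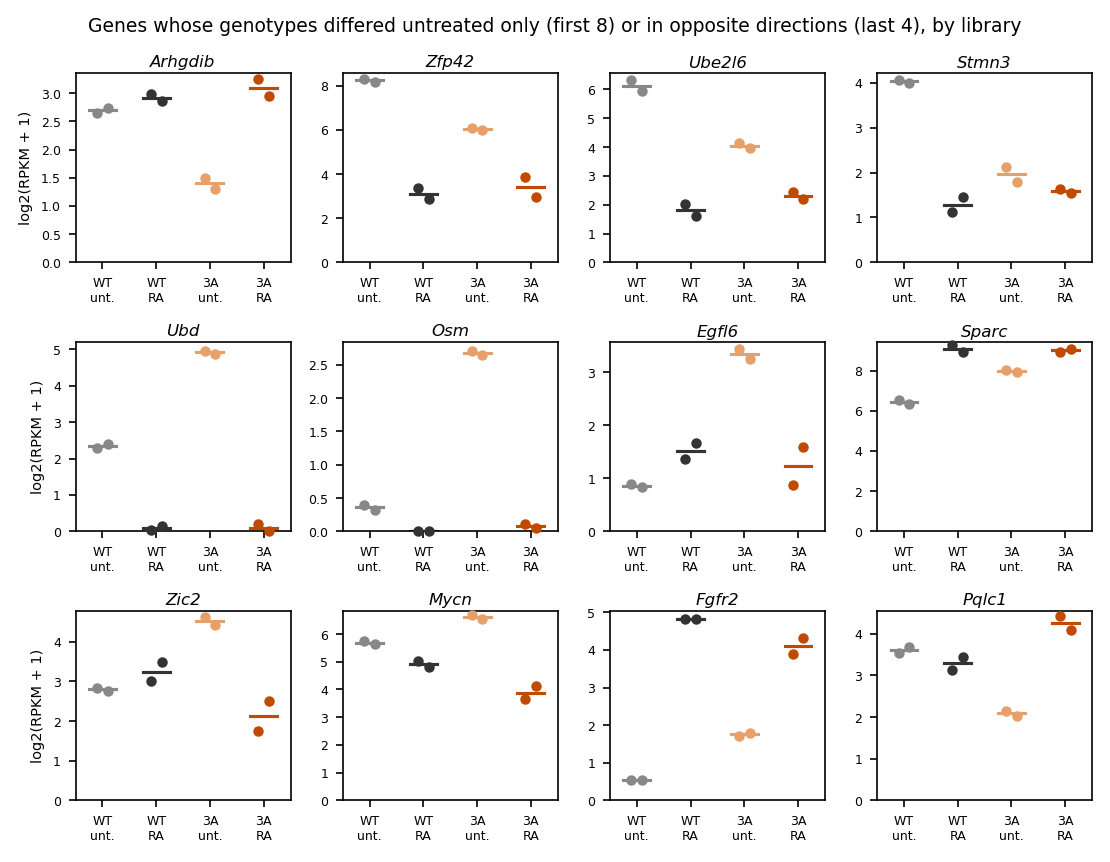
Each panel shows 1 gene and each point 1 library, as log2(RPKM + 1), with bars at group means. In the first 8 panels the genotypes are apart untreated and close with RA; in the last 4 the order of the genotypes is reversed between the states.

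In 34 genes the genotypes differed in both states and in opposite directions, 26 with lower and 8 with higher values. Zic2, a zinc-finger factor of the neural plate, stood at 6.15 and 5.75 RPKM in wild type untreated and at 7.04 and 10.1 with RA. GLP 3A gave 23.7 and 20.3 untreated and 2.38 and 4.68 with RA. GLP 3A minus wild type was 1.72 untreated (adjusted p = 0.0128) and -1.11 with RA (adjusted p = 0.0499), and its difference of responses of -2.84 ± 0.38, adjusted p = 0.0306 was among the largest decreases. Mycn, an ESC proto-oncogene, fell in both genotypes and crossed over. It stood at 53.2 and 48.5 RPKM before and 31.5 and 27.2 after RA in wild type. Levels in GLP 3A were 101 and 93.1 before and 11.5 and 16.5 after (-1.95 ± 0.23, adjusted p = 0.0238). Fgfr2, an FGF receptor, rose in both and crossed over. It stood at 0.459 and 0.455 RPKM in wild type without RA and at 27.2 and 27.2 with it. The GLP 3A values were 2.28 and 2.47 and 13.8 and 19.14, in the same order (-1.92 ± 0.21, adjusted p = 0.0204).

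Cyp1b1, a cytochrome P450, stood at 0.226 and 0.198 RPKM in wild type untreated and 38.5 and 40.6 with RA. The mutant cells had 1.28 and 1.39 untreated and 20.5 and 25.02 with RA (-1.72 ± 0.15, adjusted p = 0.0169). Id3, an inhibitor of bHLH factors and target of BMP signalling, stood at 47.5 and 49.3 RPKM in wild type before RA and at 277 and 293 after it. In GLP 3A it stood at 78.8 and 70.1 before and 125 and 167 after (-1.58 ± 0.201, adjusted p = 0.0277). The Notch ligand gene Jag1 (-1.51 ± 0.16, adjusted p = 0.0196) and Insig1, which restrains sterol synthesis (-0.95 ± 0.14, adjusted p = 0.0387), fell in both genotypes and further in GLP 3A. By the definition of this class and direction, all 7 named genes began higher and ended lower in GLP 3A.

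The reverse crossing was seen in Pqlc1, which stood at 10.6 and 11.8 RPKM without RA and at 7.76 and 9.93 with RA in wild type. The GLP 3A libraries had 3.43 and 3.101 without and 20.4 and 16.1 with RA (2.48 ± 0.22, adjusted p = 0.0168). Its RA change was called in GLP 3A and not in wild type. Baiap2, a regulator of the actin cytoskeleton (1.11 ± 0.12, adjusted p = 0.0207), and Sult5a1, a sulphotransferase (1.46 ± 0.17, adjusted p = 0.0219), also began lower and ended higher in GLP 3A. Calls of the named crossing genes ended without each of the 4 untreated libraries, with adjusted p up to 0.196 (Insig1).

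The 16 genes with a genotype difference of the same sign in both states included the largest decrease of the naming rule. Atp6v0c-ps2, a processed pseudogene, stood at 243 and 229.8 RPKM in wild type untreated and at 170.0 and 110.3 with RA. GLP 3A gave 61.3 and 51.1 untreated and 0.0195 and 0.112 with RA (-4.96 ± 0.29, adjusted p = 0.00307). It shares its locus in the files with Atp6v0c, the proton pump subunit gene it copies, so its value is uncertain, and its call was kept in all 8 leave-out fits. Aen, a nuclease gene induced by p53, was lower in GLP 3A untreated and with RA, and rose more there (0.602 ± 0.095, adjusted p = 0.0428).

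Of 14 tested genes of retinoid metabolism and binding, 1 was called, lower (7.14% against 1.8% of all genes), with a list median of -0.42 against -0.06 for all genes. The called gene was Rdh10, which makes retinaldehyde, the precursor of RA. It stood at 4.15 and 4.204 RPKM before and 44.2 and 47.9 after RA in wild type. Levels in GLP 3A were 3.95 and 4.18 before and 15.9 and 19.2 after (-1.31 ± 0.15, adjusted p = 0.0207). Its untreated levels overlapped, and both wild-type libraries with RA were more than 2-fold above both GLP 3A ones. The cellular RA-binding protein genes had large values that did not pass. Crabp1 stood at 31.05 and 29.6 RPKM in wild type without RA and at 183 and 155 with it. The GLP 3A values were 25.6 and 25.1 and 10.7 and 28.5, in the same order (-2.94 ± 0.55, adjusted p = 0.0576). Crabp2 stood at 147 and 355 RPKM in GLP 3A against 370.0 and 439.6 in wild type with RA (-1.66 ± 0.53, adjusted p = 0.152), where the 2 GLP 3A libraries were themselves far apart.

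Of 21 tested genes in a list of retinoid receptors and direct targets, 0 were called in limma, and the list median was -0.03. The list does not hold all direct targets, and Hoxb1, which was called, is not in it. Rarb, the RA receptor gene that RA induces, reached 15.3 and 18.8 RPKM with RA in GLP 3A against 18.9 and 21.4 in wild type from at most 0.0845 RPKM untreated, and its difference of responses was -0.27 with an interval of -0.700 to 0.16. Cyp26a1, the RA-degrading enzyme, reached 185 and 126 RPKM with RA in GLP 3A against 218 and 125 in wild type (-0.47, interval -1.495 to 0.55). A difference of 2-fold in Rarb lay outside its interval, while in Cyp26a1 a 2-fold lower response did not. Stra8, a germ-cell gene induced by RA, reached 118 and 69.2 RPKM with RA in GLP 3A against 29.3 and 24.3 in wild type (1.598 ± 0.34, adjusted p = 0.0731), and Cdx1 (2.54 ± 0.73, adjusted p = 0.127) and Tgm2 (2.51 ± 0.57, adjusted p = 0.0846) had larger values with more spread.

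Hox genes are arrayed in 4 clusters and activated by RA in the order of their position. They gave 4 calls among 31 tested (12.9% against 1.8% of all genes), 1 higher and 3 lower, with a median of -0.50. Values were below 0 in 25 of 31 genes, against 58.0% of all genes tested, and in 20 of 31 after quantile normalization. The count was 16 of 27 with a median of -0.18 without RA-treated wild-type replicate 2, and 19 of 31 with a median of -0.16 without RA-treated GLP 3A replicate 1. The median was -0.86 without RA-treated GLP 3A replicate 2. The higher call was in paralogue group 1, at 1 end of the clusters, and the lower calls were in groups 9 and 10. Hoxb1, above, responded more in GLP 3A. Hoxa9 reached 0.592 and 0.464 RPKM with RA in GLP 3A against 3.23 and 2.75 in wild type (-1.37 ± 0.16, adjusted p = 0.0219), Hoxa10 0.221 and 0.205 RPKM with RA in GLP 3A against 1.61 and 1.84 in wild type (-1.202 ± 0.15, adjusted p = 0.0256) and Hoxd9 1.84 and 1.42 RPKM with RA in GLP 3A against 4.56 and 5.53 in wild type (-1.25 ± 0.18, adjusted p = 0.0376), each from below 1 RPKM untreated. Their levels were low. Hoxa9 and Hoxa10 were tested only because both wild-type libraries with RA exceed 1 RPKM, and without either of these they were not tested. Hoxd9 lost its call without either one, and all 3 lost theirs without any 1 untreated library, with adjusted p up to 0.194 (Hoxd9).

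By paralogue group, a split made after the values were seen and therefore not tested, the 15 tested genes of groups 1 to 5 had a median of -0.03 (from -1.22 to 0.87, 10 below 0). The 14 genes of groups 6 to 10 had a median of -1.06 (from -1.57 to -0.03), and all 14 were below 0. In groups 1 to 5 the lowest values were those of Hoxd1 (-1.22) and Hoxd4 (-0.96), neither called. At the other end, in group 13, Hoxb13 had 0.14 and Hoxd13 -0.49, neither called. Hoxb2 had a value near 0 (-0.051, interval -0.97 to 0.87). Hoxc9 (-1.57 ± 0.33, adjusted p = 0.0731) and Hoxc6 (-1.502 ± 0.75, adjusted p = 0.313) had values as large as those called but did not pass. Genes of a cluster lie side by side and are not independent.

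**Figure D4:**
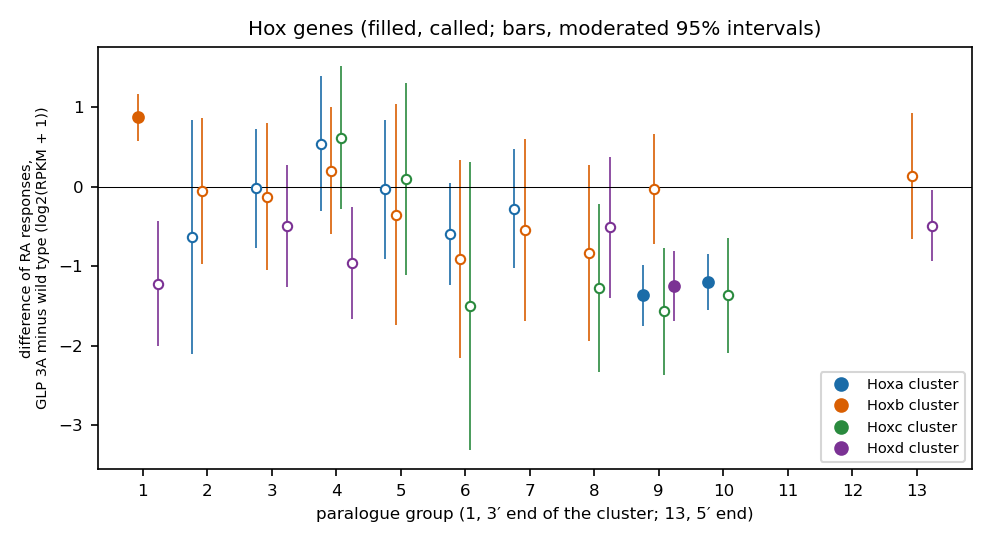
The difference of responses of 30 Hox genes in log2(RPKM + 1) is plotted by paralogue group, coloured by cluster, with moderated 95% intervals; filled points were called. Groups 1 to 5 scatter around 0 with Hoxb1 the 1 gene called there, while the 14 points of groups 6 to 10 lie below 0 and include Hoxa9, Hoxd9 and Hoxa10.

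Pluripotency genes had positive values on the whole. Of 32 tested, 1 was called (Zfp42, above), a share of 3.13% against 1.8% of all genes. The median was 0.48 and 26 were above 0. RA lowered Nanog from 149 and 143 to 1.51 and 0.814 RPKM in wild type and from 187 and 191 to 13.1 and 6.303 in GLP 3A (1.88 ± 0.43, adjusted p = 0.0854), and Pou5f1, which encodes Oct4, to 14.5 and 2.200 and 27.7 and 10.7 RPKM (1.64 ± 1.05, adjusted p = 0.427). With RA the libraries of the 2 genotypes did not overlap for Nanog, and they overlapped for Pou5f1, whose interval ran from -0.91 to 4.19. The Nodal inhibitor Lefty1 (1.74 ± 0.76, adjusted p = 0.262) was likewise spread between replicates, and Sox2 gave -0.48 (adjusted p = 0.441). In bulk RNA, more remaining undifferentiated cells and more RNA per cell cannot be told apart, here or in the lists that follow. The list median ran from 0.16 to 0.90 over the 8 leave-out fits.

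Of 18 tested genes of formative and primed pluripotency, the states that follow the naive one, 4 were called lower (among them Zic2, Zic5 and Dnmt3b) and 1 higher (Tcf15), with a median of -0.25. The calls made up 27.8% of this list, against 1.8% of all genes. The members thus moved in both directions.

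Lineage lists had medians on both sides of 0. Endoderm gave 3 lower calls among 24 tested (12.5%, Sparc, Pdgfra and Serpinh1) with a median of -0.69. Mesoderm gave 1 lower call among 13 (7.69%, Hand2, median -0.45). Neural progenitors gave 1 among 14 (7.14%, Pax3, median -0.82, and from -1.11 to -0.46 over the leave-out fits). Over all genes 1.8% were called, and 1 call in a list of this size says little about the list. Medians were above 0 for neuron genes (0.24, 1 higher call of 13, Stmn3), smooth muscle genes (0.16, 0 called of 15 in limma) and trophoblast genes (0.13, 1 lower call of 13, Gata3), and those of the last pair of lists changed sign over the leave-out fits. Over the endoderm genes the median RA change was 2.30 in wild type and 1.59 in GLP 3A, and over the neural progenitor genes 2.10 and 1.11. Over the neuron genes it was below 0 in both genotypes, -0.90 in wild type and -0.79 in GLP 3A. Sox17, an endoderm factor, reached 8.49 and 7.55 RPKM with RA in GLP 3A against 28.4 and 14.98 in wild type (-1.34 ± 0.38, adjusted p = 0.123), the neural factor Zic1 1.01 and 2.02 RPKM with RA in GLP 3A against 6.14 and 7.33 in wild type (-1.59 ± 0.28, adjusted p = 0.0526) and the adhesion gene Cdh2 28.2 and 47.02 RPKM with RA in GLP 3A against 55.1 and 63.4 in wild type (-1.45 ± 0.31, adjusted p = 0.0768), none of them called. Zic1 lay close to the threshold and was called under 6 of the 12 other settings with all libraries (lowest adjusted p = 0.0347), and Cdh2 under 1 of them. Both were called when 1 or the other RA-treated GLP 3A library was left out. The endoderm median was 0.03 without RA-treated wild-type replicate 1 and -1.29 at its lowest. Without that replicate 20 endoderm genes were tested in place of 24. The change of sign thus came with a change of both library and gene set, which were not separated.

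Marker genes were summed in each library. The 8 primitive endoderm markers summed to 398 and 107 RPKM in the 2 wild-type libraries with RA and to 144 and 70.2 in those of GLP 3A, so replicate 1 was the higher in both genotypes. Neural progenitor markers summed to 68.1 and 84.8 in wild type and 48.7 and 62.8 in GLP 3A with RA, and pluripotent markers to 76.8 and 64.4 and to 106 and 72.5. Smooth muscle markers summed to 1006 and 1417 in wild type and 2104 and 1358 in GLP 3A. The 5 blood markers summed to 5.86 and 3.35 in wild type and to 12.5 and 20.5 in GLP 3A with RA, against at most 0.557 untreated, with 3 of the 5 (Gata1, Tal1 and Ptprc) below 1 RPKM in every library. The 7 trophoblast markers summed to 28.3 and 23.6 in wild type and 21.3 and 24.8 in GLP 3A with RA, with Elf5 below 1 RPKM throughout. The 6 mesoderm markers summed to 4.54 to 9.17 over the 8 libraries, with Mixl1, Mesp1 and Tbx6 below 1 RPKM in all. The part of cell mixture in the differences of responses was not tested.

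**Figure D5:**
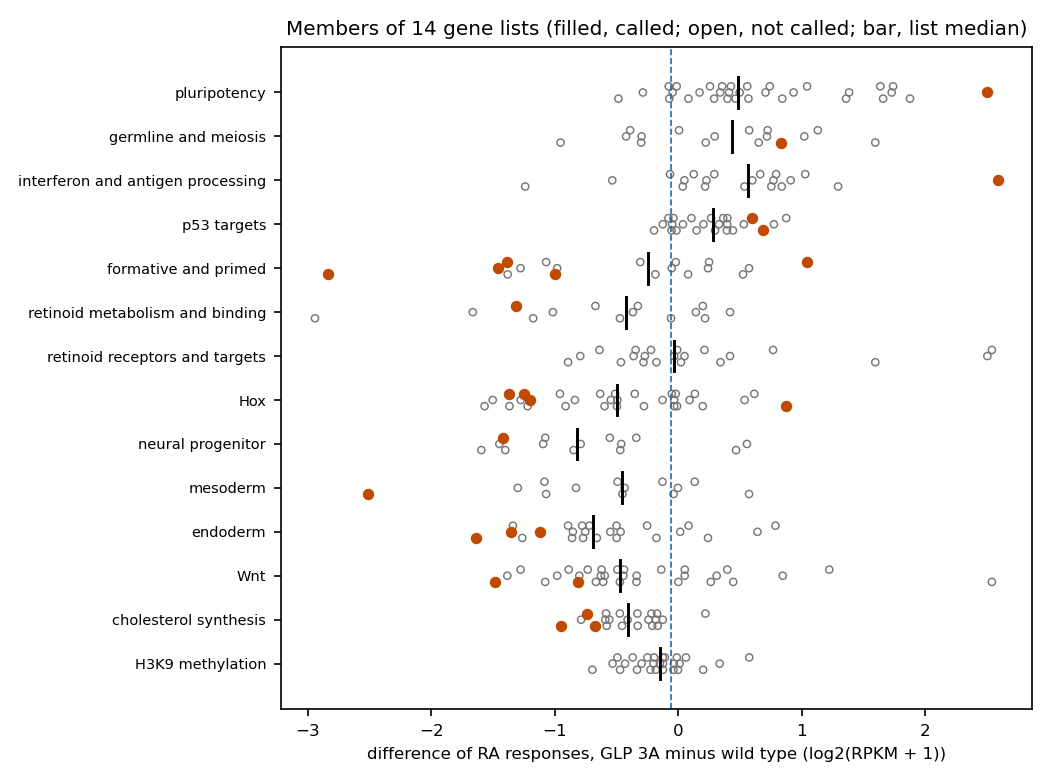
Each circle is 1 gene of 14 lists, placed by its difference of responses in log2(RPKM + 1); filled circles were called, black bars are list medians and the dashed line is the median of all genes, -0.06. Pluripotency, germline, interferon and p53 lists have medians above 0, and the endoderm and neural progenitor lists have the lowest.

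The 5 signalling lists and cholesterol synthesis had 1 to 3 calls each, shares of 5.88% to 14.3% against 1.8% of all genes. Wnt genes gave 2 lower calls of 31 (Sp5 and Wnt5b, median -0.47), and Nodal and BMP genes 2 lower of 29 (Msx1 and Id3). There were 2 lower calls in Hedgehog and Notch genes of 22 (Hhip and Jag1). FGF genes gave 1 higher (Spry4) and 1 lower (Fgfr2) of 23, and LIF genes 1 lower of 17 (Lifr). Cholesterol synthesis gave 3 lower calls of 21 (among them Insig1 and Idi1), with 20 of 21 below 0 and a median of -0.41 that kept its sign in all leave-out fits. The median genotype difference of these 21 genes was 0.23 untreated and -0.22 with RA.

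Interferon and antigen-processing genes gave 1 higher call of 20 (Ube2l6, 5% against 1.8% of all genes), a median of 0.57 and 17 of 20 above 0. Targets of p53 gave 2 higher of 24 (8.33%, Cdkn1a and Aen, median 0.28). Germline genes gave 1 higher of 16 (6.25%, Rec8, median 0.44, and from 0.14 to 0.61 over the leave-out fits). Imprinted genes gave 1 higher (Phlda2) and 2 lower (Zim1 and Mest) of 37 (8.11%). No gene was called in limma among 27 for H3K9 methylation (median -0.15, with Ehmt2 at -0.22, interval -0.66 to 0.21), 25 for S phase, 79 ribosomal protein genes, 18 fibroblast genes and 15 smooth muscle genes.

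A genotype difference could be large in both states with no called difference of responses. Cyct, the testis cytochrome c gene, stood at 3.95 and 3.45 RPKM in wild type untreated and 3.61 and 4.53 with RA. The mutant cells had 58.4 and 55.3 untreated and 40.2 and 60.98 with RA. It was higher in GLP 3A in every library, and its difference of responses was -0.299 (interval -0.98 to 0.38). In 435 genes the genotype difference was called in both states with the same sign, and the difference of responses was called for 16 of them.

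Called genes lay on all chromosomes but Y. Chromosomes 1 and 14 had the highest shares, 24 of 710 (3.38%) and 14 of 459 (3.05%). On chromosome 1 the median difference of responses was -0.06, although the median genotype difference there was -0.24 untreated and -0.31 with RA. On chromosome 11 the median genotype difference was 0.24 in both states, and over the 4 tested genes of chromosome Y it was 2.02 untreated and 1.68 with RA. Kdm5d on chromosome Y stood at 0.0579 to 0.122 RPKM over the wild-type libraries and 2.62 to 3.74 over those of GLP 3A. Eif2s3y, on the same chromosome, was present in both genotypes, at 4.47 to 6.12 RPKM in wild type and 13.8 to 28.2 in GLP 3A. Genotype differences thus varied by chromosome in both states, and genotype and clone cannot be told apart. Within 50 kb of each other, without overlap, lay 5 pairs of called genes, of which 4 had the same direction, among them Zic5 with Zic2 and Hoxa9 with Hoxa10. In the remaining pair, Ube2l6 ends 1172 bases before Smtnl1 begins on chromosome 2, and Ube2l6 started lower and Smtnl1 higher in untreated GLP 3A. Among the 238 genes, 39 share a locus with another symbol, 12 are short RNA genes and 17 have no established name, and their values are the least certain.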

How the data were processed

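Single-end RNA-seq of total RNA (Trizol, DNase) was deposited as 1 table of RPKM per gene symbol for each of the 8 libraries, per the file headers. The authors' tools were Bowtie 0.12.7, SAMtools, TopHat and Cufflinks with build mm9, per the submitters' processing notes; how strand and overlapping genes were handled is not given in these sources. Groups follow the labels. RPKM were joined by symbol, 23228 of 23240 being in all files, and zeros were used as deposited. Genes with at least 1 RPKM in 2 libraries were fitted on log2(RPKM + 1) with limma 3.58.1 in R 4.3.3 (4 group means, intensity trend, moderated two-sided tests, Benjamini-Hochberg over 13198 genes, 5 comparisons), so fold changes of low genes are understated. The code of the fit was run on simulated data with independent noise of equal size in all groups. Real replicates differed more with RA, so that run does not vouch for the calls.

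The comparison and the gene lists were chosen with earlier results of these data known. Named genes are the 10 largest called values each way, the 8 largest each way of the 2 single-state classes, 4 each way of crossing genes (same sign in 16 of 16 library choices, a library at 5 RPKM or more, no short RNA or unnamed genes), up to 4 called and 2 uncalled members of each list, and a fixed set; some are not reported here. Promoters came from RefSeq (GRCm38.p6); no coordinates were moved between builds. Alternatives were pseudocounts, filters, scalings, variance options, replicate blocks, a 2-fold threshold, suspect zeros (0 beside at least 5 RPKM) as missing, and each library left out.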

Additional observations from a re-analysis of the deposited data

Results flagged for a closer look

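The RA responses of the 2 genotypes differed by the test of that difference itself (limma, adjusted p under 0.05 over all genes tested, n = 2 libraries per group) in each of the 66 genes below, given with the difference of responses on the log2(RPKM + 1) scale. Of all genes tested, 1.8% met this threshold, and the 66 were named by size or by list membership. Below, genotypes that differed in a state had a called difference there, and in the other state none was called, which does not mean equal. Groups of 2 libraries are too small for a check on single outlying libraries. Higher values in genes whose genotypes differed with RA and not untreated were those of Slc13a4 (1.89), Csn3 (1.72), Phlda2 (1.68), Krt20 (1.598), Hist1h2bc (1.27), Chchd10 (1.21), Ass1 (1.21), Igtp (1.13), Hoxb1 (0.87), Rec8 (0.84) and Cdkn1a (0.69). Lower values in that group were those of Hand2 (-2.52), Nrp2 (-2.26), Col14a1 (-2.24), Msx1 (-2.07), Gfra3 (-1.63), Fam181b (-1.54), Sp5 (-1.49), Aff3 (-1.47), Pax3 (-1.42), Hoxa9 (-1.37), Pdgfra (-1.36), Zim1 (-1.35), Rdh10 (-1.31), Hoxd9 (-1.25), Hoxa10 (-1.202), Lifr (-1.17), Gata3 (-1.16), Hhip (-1.03) and Idi1 (-0.74). Among genes whose genotypes differed untreated and not with RA, higher values were those of Ube2l6 (2.59), Zfp42 (2.504), Stmn3 (2.37), Atp2a3 (1.92), Plekhb1 (1.55), Arhgdib (1.47), Osbpl10 (1.39), Spry4 (1.14) and Tcf15 (1.05). Lower values there were those of Egfl6 (-2.77), Ubd (-2.57), Osm (-2.24), Smtnl1 (-2.06), Prrc1 (-1.698), Shf (-1.68), Hesx1 (-1.67), Sparc (-1.64), Zic5 (-1.46), Dnmt3b (-1.38), Mest (-1.25), Serpinh1 (-1.12), Esrp1 (-0.98), Wnt5b (-0.81) and Aurkb (-0.52). Among genes that crossed over, the values above 0 were those of Pqlc1 (2.48), Sult5a1 (1.46) and Baiap2 (1.11). Crossing genes with values below 0 were Zic2 (-2.84), Mycn (-1.95), Fgfr2 (-1.92), Cyp1b1 (-1.72), Id3 (-1.58), Jag1 (-1.51) and Insig1 (-0.95). Genes with a genotype difference of the same sign in both states were Atp6v0c-ps2 (-4.96) and Aen (0.602).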

How the results depend on the processing

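The 238 genes called (74 higher, 164 lower, 72 with a genotype difference called with RA and not untreated, 116 called untreated and not with RA) changed by more than 1.5 times under 6 of the 12 settings that kept all libraries. With a pseudocount of 0.1 there were 158 (49, 109, 37 and 73), with quantile normalization 146 (48, 98, and 64 called untreated and not with RA), with robust empirical Bayes 362 (119 higher, 115 and 184 in the 2 classes), with suspect zeros as missing 427 (148, 279, 137 and 210), and with a 2-fold threshold added 149 (99 lower, 45 and 66 in the classes). Over the 8 fits that left out 1 library, the total ran from 10 to 1129, genes higher from 3 to 435, genes lower from 6 to 694, and the classes from 5 to 550 and from 3 to 339. The 4 lowest totals came without an untreated library and the highest without RA-treated GLP 3A replicate 2; the cause was not tested. Of the 238 genes, 8 were called in all 8 of these fits.

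The labels do not say that equal replicate numbers mark a shared culture or batch. Deviations of same-numbered libraries from their group means correlated across genes at 0.17 to 0.36 over the 6 pairs of groups. With the number as a replicate block over all libraries 199 genes were called, and with a replicate block within each treatment 540 (174, 366, 176 and 226), among them 6 genes that the report gives as not called (Nanog, Tgm2, Stra8, Hoxc9, Zic1 and Cdh2, adjusted p from 0.0238 to 0.0432).

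Signs changed only in reported genes that were not called. Hoxb2 was 0.018 with quantile normalization and from -0.43 to 0.33 over the leave-out fits, and Cyct was 0.35 with quantile normalization. The share of calls that were higher stayed between 28.7% and 35.7% over the 12 settings. A similar total can hold different genes. Without the filter on low values 184 genes were called, 103 of them among the 238, and 25 of the 66 reported calls were kept. With a pseudocount of 0.1, 38 of the 66 were kept, and with quantile normalization 50. All 66 were kept with robust empirical Bayes and with suspect zeros as missing. RPKM without read counts limits the precision of genes near 1 RPKM most.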
